A study of Sus scrofa with 16 samples.

Results

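Cardiac ion channel and conduction genes were examined in left ventricular RNA of young pigs after ischemia/reperfusion (IR) or sham surgery. A list of 36 genes was drawn up by role, and a gene was kept where at least 4 samples held an estimated count of 10 or more. Of the 36, 34 were found in the tables, 4 of those had too few counts (*ABCC8*, *KCND3*, *KCNK3* and *HCN4*), and 30 of the 22629 genes of the tables were kept. *KCNJ11* and *KCNJ12* were not analysed here. *CACNA1D*, with a count of 10 or more in 5 samples, lay just inside the rule, and *ABCC8*, with 3 such samples, just outside.

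White Yorkshire-Landrace farm pigs of 30 days underwent 1 h of occlusion of the left anterior descending artery with reperfusion (IR pigs 2, 9, 11 and 14), or the same operation with no occlusion (sham pigs 4, 5, 12 and 13). Pigs 2, 14, 4 and 5 were female, and pigs 9, 11, 12 and 13 male. All pigs received amiodarone, an antiarrhythmic drug that blocks potassium and other channels, before incision, and heparin was given to the IR pigs. Tissue was taken 4 weeks later from the scar zone and the adjacent border zone of every heart, which gave 16 samples in 4 groups of 4. The scar zone of IR pigs held scar together with neighbouring viable myocardium, and the sham scar zone was a piece of the matching place with no scar. Since pieces of whole tissue were sequenced, fewer cells of one type and less RNA per cell cannot be told apart in any value given here.

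The heartbeat is carried by inward sodium and calcium currents that depolarize the myocyte and by several potassium currents that return it to rest. Connexins join neighbouring cells into gap junctions through which the impulse spreads, and the Purkinje network, a specialized set of myocytes, carries it rapidly through the ventricles. Remodelling of these channels and junctions around healed infarcts is a known background for ventricular arrhythmia.

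Total estimated counts ran from 15.4 M to 49.0 M per sample (median 21.8 M). Samples of IR pigs 9 and 11 were the deepest, at 33.5 M to 49.0 M. Those of IR pigs 2 and 14 held 15.4 M to 21.2 M, and sham samples 19.7 M to 27.1 M. Hence 3 counts stood for 0.0612 to 0.194 CPM, the unit of counts scaled to library size used for single genes. The 11 cardiomyocyte markers found in the tables (of 13 listed) were above 0 in every sample. Their summed level was 65505 to 93086 CPM in the IR scar zone, 80830 to 110074 in the sham scar zone, 85433 to 106295 in the IR border zone and 81820 to 105530 in the sham border zone. The 10 fibroblast and matrix markers summed to 26341 and 34689 CPM in the scar zones of IR pigs 9 and 11, both male, to 6218 and 4948 in those of IR pigs 2 and 14, and to 5861 to 7692 in the sham scar zones. In both border zones together they stayed between 5338 and 8148 CPM. The scar zones of IR pigs 9 and 11 therefore stood apart from the other 14 samples in matrix markers, and scar zone values without each of them are given beside several results. Their cardiomyocyte markers summed to 65505 CPM, the lowest of the 16 samples, and to 81261 CPM, within the sham scar zone range. Summed leucocyte markers were highest in the same scar zones, at 293 and 313 CPM.

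**Figure D1:**
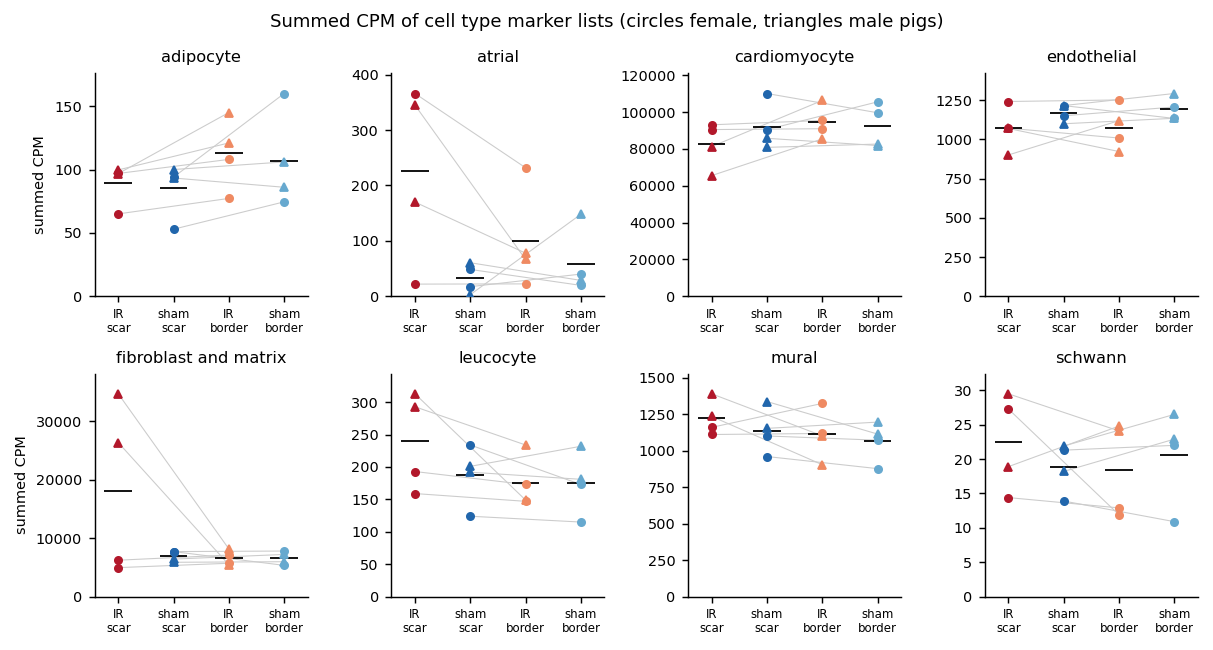
Summed CPM of the cell type marker lists (linear axes from 0) in each sample by group; circles are female and triangles male pigs, grey lines join the 2 zones of a pig, and bars are group means of 4. Fibroblast and matrix markers stood at 26341 and 34689 CPM in 2 IR scar zones, and at 4948 to 8148 CPM in the other 14 samples.

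Levels were compared between genes in TPM, a unit scaled to both library size and transcript length. *GJA1*, the main ventricular connexin, had the highest mean level over the 16 samples (192 TPM), ahead of *KCNJ4*, an inward rectifier (149 TPM), and *KCNIP2*, the accessory subunit of the transient outward channel (53.1 TPM). The next 14 genes, from 33.5 to 6.84 TPM, were in falling order *KCNQ1*, *ABCC9*, *KCNA5*, *KCNJ8*, *CACNA2D1*, *KCNJ5*, *KCNJ2*, *KCNH2*, *CACNB2*, *KCNJ3*, *GJA5*, *IRX3*, *TRPM4* and *GJC1*. The remaining 13 genes lay between 2.43 TPM (*KCNN2*) and 0.0624 TPM (*CACNA1D*). Ranges over samples of neighbours in this order overlapped except between *KCNJ4* and *KCNIP2* and between *GJC1* and *KCNN2*, so the order of most neighbours was not resolved beyond the spread of the samples.

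Levels also differed within families. Among the inward rectifiers kept, *KCNJ4* stood at 98.8 to 195 TPM while *KCNJ2*, which sets the ventricular resting potential, stood at 11.9 to 30.2 TPM. Among transient outward genes, the pore subunits *KCND2* and *KCNA4* had mean levels of 1.26 and 0.193 TPM, and *KCND3* had at most 6 estimated counts in any sample. *HCN4*, the pacemaker channel of the sinus node, had at most 3 estimated counts per sample. *HCN2*, its ventricular relative, stood at 0.811 to 1.60 TPM.

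**Figure D2:**
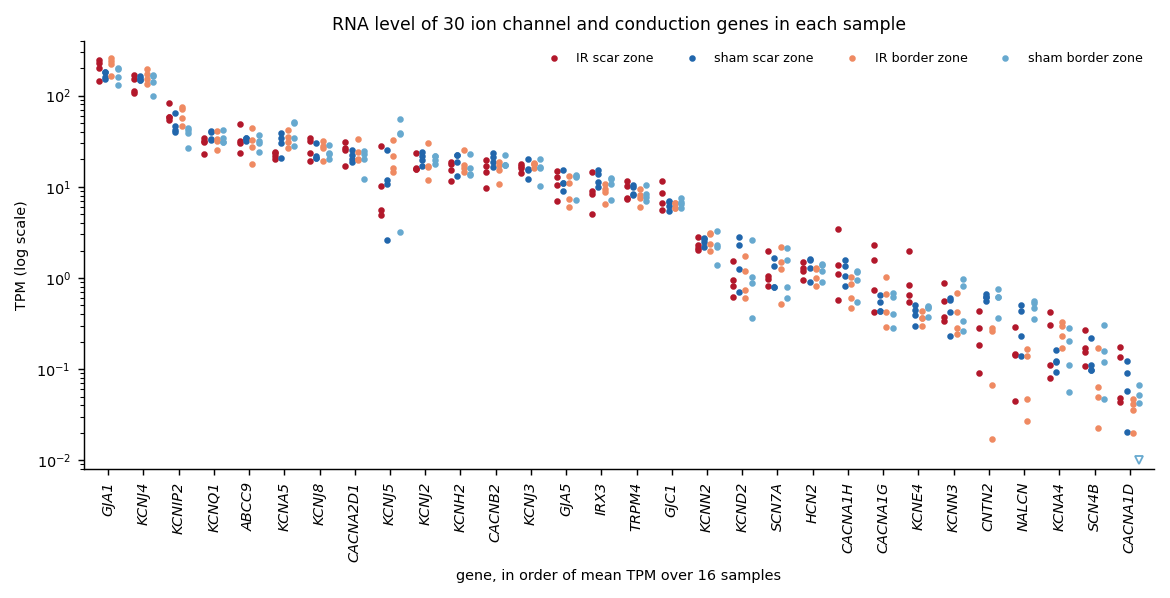
TPM (log axis) of the 30 genes, in order of mean level, with 1 point per sample coloured by group; an open triangle on the lower edge marks a sample at 0. *GJA1* and *KCNJ4* lie above 98 TPM in every sample, and 13 genes have a mean of 2.43 TPM or less.

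The question of the scar zone comparison was how the injured region differed from the same place in sham hearts. *CNTN2*, a cell adhesion molecule that marks Purkinje cells, and *NALCN*, a sodium leak channel, were lower in IR pigs, as were *KCNJ2*, *KCNA5*, *KCND2* and *CACNB2*. *KCNE4*, an ancillary potassium channel subunit, and *CACNA1G*, a T-type calcium channel, were higher. Of the 30 genes, 8 had an unadjusted p of at most 0.05 by edgeR's quasi-likelihood test, 2 higher and 6 lower, beside 11.2% of the 14023 genes tested (6.57% higher and 4.64% lower). None of the 30 passed after Benjamini-Hochberg adjustment over all genes (smallest adjusted p = 0.438), and no gene of the 14023 did. DESeq2 gave 10 of the 30 at an unadjusted p of at most 0.05, beside 12.8% of all genes, and 1 at an adjusted p of at most 0.05 (*CNTN2*), beside 0.535%. By edgeR without 1 pig, the number at the unadjusted threshold ran from 4 (without pig 11, beside 5.65%) to 11 (without pig 2, beside 18.2%). With limma on log2(TPM + 1) it was 1 of the 22 genes tested, beside 8.10%.

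*KCNE4*, *NALCN*, *KCND2* and *CNTN2* also differed by at least 2-fold at the unadjusted threshold, beside 3.35% of all genes. Groups did not overlap for *KCNE4*, higher in every IR scar zone, and for *KCNJ2* and *CNTN2*, lower in every one, beside 4.86% of all genes (2.20% higher and 2.65% lower). The 30 genes had a median log2 fold change of -0.20 against 0.03 for all genes, with 19 of the 30 below 0. In the same comparison the median was -0.26 for the 11 cardiomyocyte markers, 7 of them below 0, and 1.07 for the 10 fibroblast and matrix markers, all above 0, and the part of either in the values of the 30 genes was not tested.

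In the border zone, the question was whether tissue next to the scar differed as well. *NALCN* and *CNTN2* were again lower in IR pigs, and *KCNIP2* was higher. These were the 3 of 28 genes with an unadjusted p of at most 0.05, beside 3.78% of the 13728 genes tested (2.09% higher and 1.69% lower). Leaving out 1 pig gave 3 to 5 genes (5 without pig 2, 9 or 13), beside 1.92% to 6.94% of all genes. With limma on log2(TPM + 1) it was 1 of the 21 genes tested, beside 3.01%. No gene passed after adjustment (smallest adjusted p among the 28 = 0.988). *SCN4B* and *CACNA1D* had too few counts for a test in these 8 samples. The groups were separate for *KCNIP2* (IR higher) and for *NALCN*, *CNTN2* and *KCNE4* (IR lower), beside 2.03% of all genes (0.794% higher and 1.24% lower), and 2 genes were also past 2-fold, beside 0.794%. The 28 genes had a median log2 fold change of -0.14, and all genes 0.00. Without 1 pig their median ran from -0.22 (without pig 9) to -0.06 (without pig 2 or 11). Only 0.541% of 13682 genes tested in both zones were lower in both at the unadjusted threshold, and 0.168% had non-overlapping lower IR values in both. *CNTN2* met both criteria, and *NALCN* the first. Different samples of the same 8 pigs make up both comparisons.

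**Figure D3:**
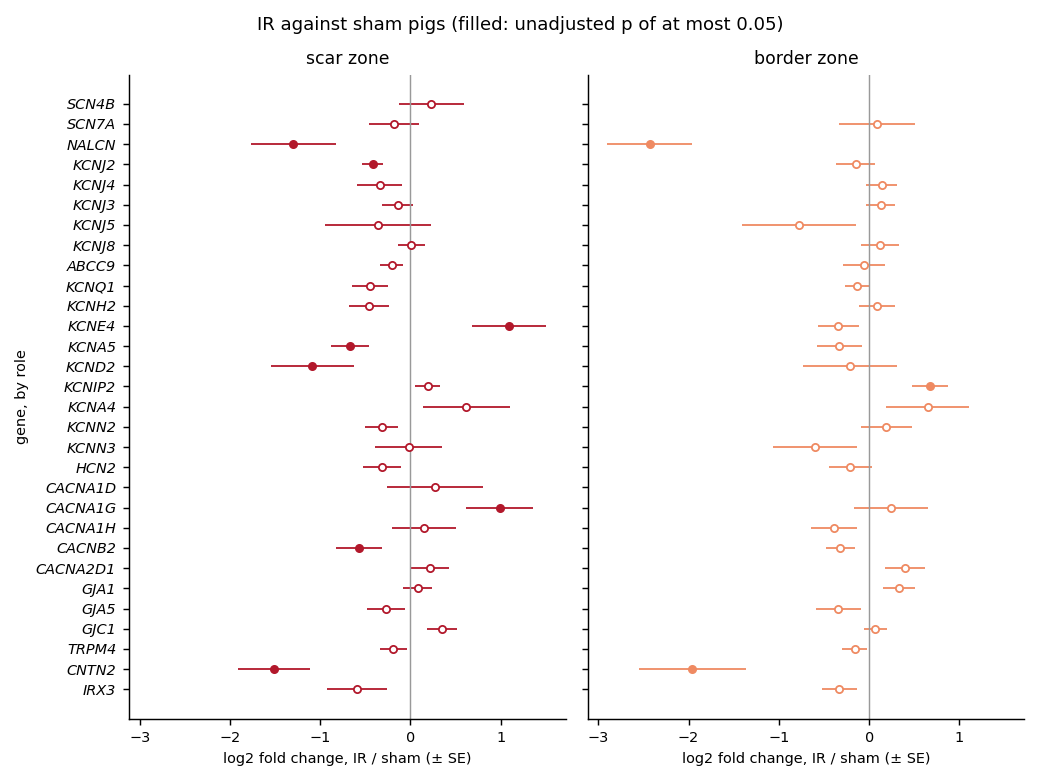
Log2 fold change of IR over sham pigs with its standard error for the 30 genes, ordered by role, for each zone (4 against 4 pigs); filled points have an unadjusted p of at most 0.05. *NALCN* and *CNTN2* are filled and left of 0 in both zones, and 2 genes are not tested in the border zone.

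Among sodium channel genes, *NALCN* carries a background leak current that draws the membrane towards depolarization. It stood at 1.33, 1.77, 1.17 and 0.409 CPM in the scar zones of IR pigs 2, 9, 11 and 14, and at 3.66, 1.38, 4.56 and 2.21 CPM in sham pigs 4, 5, 12 and 13. Border zone values, in the same order of pigs, were 0.242, 1.39, 0.462 and 1.23 CPM against 5.69, 3.33, 4.61 and 4.25 CPM. Every sham border zone was above every IR border zone, while in the scar zone sham pig 5 lay below IR pig 9. For the scar zone the log2 fold change was -1.30 ± 0.47 (SE), with an edgeR p of 0.0212, an adjusted p of 0.438 and an exact two-sided permutation p of 0.0571. For the border zone it was -2.43 ± 0.47, with an edgeR p of 0.000355, an adjusted p of 0.988 and an exact permutation p of 0.0286, the smallest that 4 pigs against 4 can give. Border zone log2 fold changes by sex were -2.64 in females and -2.26 in males, and DESeq2 gave an adjusted p of 0.000290. *NALCN* was a low gene, with 5 to 126 estimated counts per sample, and its scar zone p rose to at most 0.0692 when sham pig 4 or 12 was left out.

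*SCN7A*, an atypical sodium channel of the family, was the highest by TPM of the 3 sodium channel genes among the 30. It stood at 6.07, 8.25, 5.69 and 5.38 CPM in the IR scar zone, at 4.52, 5.22, 10.1 and 8.82 in the sham scar zone, at 3.19, 12.5, 8.34 and 9.06 in the IR border zone and at 4.14, 5.02, 12.1 and 9.75 in the sham border zone. The groups overlapped in both zones, and log2 fold changes were -0.18 ± 0.28 (scar) and 0.09 ± 0.42 (border). *SCN4B*, a beta subunit, had 4 to 29 estimated counts per sample and a scar zone log2 fold change of 0.23 ± 0.36.

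*CNTN2* encodes contactin-2 and is a label of the Purkinje network. Scar zone levels were 2.71, 1.21, 1.05 and 0.613 CPM in IR pigs 2, 9, 11 and 14 and 3.98, 4.19, 3.44 and 4.15 CPM in sham pigs 4, 5, 12 and 13. Border zone levels were 1.64, 1.68, 0.485 and 0.117 CPM in IR pigs and 5.35, 4.00, 2.23 and 3.86 CPM in sham pigs. In each zone all 4 IR samples lay below all 4 sham samples, with IR pig 14 lowest in both zones and its border value resting on 2.01 estimated counts. Log2 fold changes were -1.51 ± 0.40 for the scar zone (edgeR p of 0.00377, adjusted p of 0.438) and -1.96 ± 0.59 for the border zone (edgeR p of 0.00736, adjusted p of 0.988), each with an exact permutation p of 0.0286. Leaving out any pig kept the scar zone value between -2.01 and -1.29 and the border zone value between -2.36 and -1.63, with an unadjusted p of at most 0.0249. DESeq2 gave an adjusted p of 0.0354 in the scar zone.

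Glial cells also carry *CNTN2*, so Schwann cell markers were summed beside it. The 5 markers found in the tables, of 6 listed, added up to 14.4 to 29.5 CPM in the IR scar zone and 13.9 to 21.9 in the sham scar zone, and to 11.9 to 24.8 and 10.9 to 26.5 in the border zones, none of them at 0 in any sample. The part of glial cells in the *CNTN2* difference was not tested. *IRX3*, a transcription factor of the ventricular conduction system, was the higher of both conduction markers by TPM. It stood at 56.8, 23.2, 17.1 and 34.0 CPM in IR and 55.7, 57.1, 42.4 and 40.7 CPM in sham scar zones, and at 36.2, 37.4, 27.1 and 32.9 against 45.8, 48.5, 46.0 and 27.7 CPM in the border zones. IR pig 2 lay with the sham pigs, the other IR scar zones were below all sham scar zones, and the log2 fold changes of -0.59 ± 0.33 (-0.47 without pig 9 and -0.38 without pig 11) and -0.33 ± 0.19 did not pass even the unadjusted test.

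**Figure D4:**
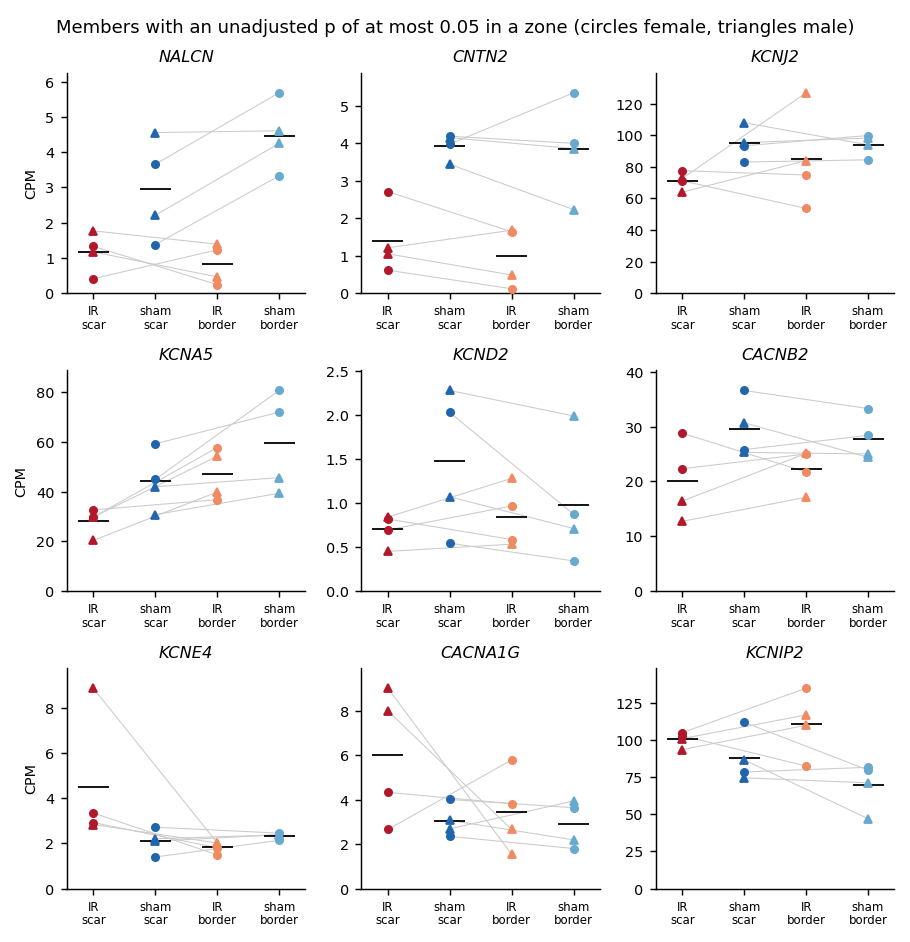
CPM (linear axes from 0) of the 9 genes with an unadjusted p of at most 0.05 in a zone; circles are female and triangles male pigs, grey lines join the 2 zones of a pig, and bars are group means of 4. *CNTN2* is lower in every IR pig than in every sham pig in both zones, and *KCNE4* of IR pig 11 (8.89 CPM) stands above the other 3 IR scar zones (2.84 to 3.35 CPM).

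Inward rectifiers hold the resting potential. *KCNJ2* stood at 71.2, 72.7, 64.0 and 77.6 CPM in the IR scar zone and at 93.4, 83.1, 108 and 95.4 CPM in the sham scar zone. All 4 IR values were below all 4 sham values, with a log2 fold change of -0.42 ± 0.12 (edgeR p = 0.00508, adjusted p = 0.438; exact permutation p = 0.0286), a difference of 1.34-fold. In border zones *KCNJ2* stood at 53.7, 127, 84.0 and 74.9 CPM in IR pigs and at 99.9, 84.5, 94.0 and 98.3 CPM in sham pigs. The IR values lay on both sides of the sham values, and the log2 fold change was -0.15 ± 0.22. In TPM with limma the scar zone difference was smaller and missed the unadjusted threshold, with a largest p of 0.247 over the alternatives.

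*KCNJ4*, the highest by TPM of the 4 inward rectifiers among the 30, stood at 171, 76.0, 96.2 and 164 CPM in IR pigs and at 149, 164, 150 and 174 CPM in sham pigs in the scar zone. Border zones stood at 194, 139, 146 and 170 against 114, 177, 134 and 165 CPM. Scar zones of IR pigs 9 and 11, those with high matrix markers, were the lowest of the 16 samples. Its log2 fold changes of -0.34 ± 0.25 (scar; -0.17 without pig 9 and -0.22 without pig 11) and 0.14 ± 0.17 (border) passed no threshold.

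*KCNJ3* and *KCNJ5* form the acetylcholine-activated channel through which the vagus acts. *KCNJ3* was even across samples, from 41.9 to 72.5 CPM. *KCNJ5* varied widely, from 2.64 to 55.8 TPM. In CPM it stood at 26.3, 89.7, 43.0 and 25.1 CPM in IR and 112, 60.8, 49.7 and 13.3 CPM in sham scar zones, and at 68.6, 144, 84.2 and 103 against 297, 192, 14.6 and 182 CPM in the border zones. In 7 of 8 pigs its level was higher in the border zone than in the scar zone of the same heart, sham pig 12 being the exception. IR over sham, its log2 fold changes were -0.36 ± 0.59 (scar) and -0.78 ± 0.63 (border). Without IR pig 9, the highest of the IR scar zones, the scar zone value was -0.94, without pig 11 it was -0.33, and without sham pig 4 it turned to 0.15. Without 1 pig the border zone value ran from -1.17 (without sham pig 12, past the unadjusted threshold in that fit) to -0.38.

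ATP-sensitive channels open when energy falls during ischemia. *ABCC9*, their cardiac regulatory subunit, stood at 100, 142, 121 and 136 CPM in IR and 136, 154, 142 and 141 CPM in sham scar zones, and at 74.4, 175, 128 and 136 against 115, 161, 129 and 130 CPM in the border zones. *KCNJ8*, a pore subunit, ranged from 79.5 to 148 CPM over all samples. Groups of both genes overlapped in both zones, and log2 fold changes lay between -0.21 and 0.12. *ABCC8*, the other regulatory subunit, had 2 to 17 estimated counts per sample and was not tested.

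Delayed rectifiers end the action potential. *KCNQ1*, the pore of the slow current, stood at 101, 60.7, 60.0 and 97.7 CPM in IR and 109, 129, 94.1 and 103 CPM in sham scar zones, and at 95.8, 109, 80.9 and 90.7 against 102, 124, 94.7 and 89.3 CPM in the border zones. *KCNH2*, the pore of the rapid current, stood at 62.3, 43.0, 35.2 and 55.3 against 73.6, 83.3, 63.5 and 47.9 CPM in the scar zones. Both were lowest in the scar zones of IR pigs 9 and 11, with log2 fold changes of -0.45 ± 0.20 (edgeR p = 0.0521, adjusted p = 0.446) and -0.46 ± 0.22 (edgeR p = 0.0611, adjusted p = 0.454), each with an exact permutation p of 0.114. Without IR pig 9 they were -0.35 and -0.42, and without IR pig 11 -0.34 and -0.33.

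*KCNA5* carries the ultrarapid current, best known from the atrium. Its scar zone values were 32.6, 20.3, 29.7 and 29.7 CPM in IR pigs and 44.9, 59.2, 41.9 and 30.7 CPM in sham pigs. Sham pig 13 fell among the IR pigs and the other 3 sham pigs were higher. This was a log2 fold change of -0.67 ± 0.21 (edgeR p = 0.0119, adjusted p = 0.438; exact permutation p = 0.0571), and it stayed between -0.81 and -0.49 without any 1 pig, always past the unadjusted threshold. Border zone values were 36.7, 39.8, 54.2 and 57.7 against 80.7, 72.0, 45.6 and 39.3 CPM, with a log2 fold change of -0.33 ± 0.25.

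*KCNE4* alters the gating of other potassium channels. It stood at 3.35, 2.84, 8.89 and 2.93 CPM in the IR scar zone and at 1.40, 2.72, 2.21 and 2.10 CPM in the sham scar zone. Every IR value was the higher, but IR pig 11 stood far above the others. Next to the scar the order was the opposite, with 1.50, 2.02, 2.03 and 1.81 CPM in IR pigs below 2.14, 2.46, 2.38 and 2.39 CPM in sham pigs. Log2 fold changes were 1.09 ± 0.41 for the scar (edgeR p of 0.0248, adjusted p of 0.438) and -0.34 ± 0.23 for the border (edgeR p of 0.161, adjusted p of 0.988), each with an exact permutation p of 0.0286. Without IR pig 11 the scar zone value was 0.52 (the lowest of the 8 left-out fits), and the unadjusted threshold was missed without pig 4, 11 or 13.

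The transient outward current shapes the early notch of the action potential. *KCNIP2*, its accessory subunit, stood at 135, 117, 110 and 82.5 CPM in IR and at 79.8, 81.7, 71.2 and 47.0 CPM in sham border zones. All 4 IR values were higher, by a small margin between IR pig 14 and sham pig 5. The log2 fold change was 0.67 ± 0.20 (edgeR p = 0.00761, adjusted p = 0.988; exact permutation p = 0.0286), or 1.59-fold, and it passed the unadjusted threshold without any 1 pig (0.52 to 0.78). In the scar zone the values were 105, 101, 93.6 and 103 CPM against 112, 78.5, 74.6 and 86.7 CPM, with a log2 fold change of 0.19 ± 0.14.

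*KCND2*, a pore subunit, had far lower levels. Its scar zone values were 0.693, 0.839, 0.449 and 0.817 CPM in IR and 0.542, 2.03, 2.28 and 1.07 CPM in sham pigs, and those of the border zones 0.966, 1.28, 0.531 and 0.584 against 0.341, 0.871, 1.99 and 0.709 CPM. Sham pig 4 was low, and the other sham scar zones were above every IR scar zone. The log2 fold change of -1.09 ± 0.46 (edgeR p = 0.0401, adjusted p = 0.438; exact permutation p = 0.143) was past the unadjusted threshold in 6 of 16 alternative analyses. *KCNA4*, another pore subunit, stood at 0.341 to 1.21 CPM in IR scar zones and 0.362 to 0.672 CPM in sham scar zones. Its log2 fold changes were 0.62 ± 0.48 in the scar zone (0.33 to 0.85 without 1 pig) and 0.65 ± 0.46 in the border zone (0.35 to 0.99).

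Of the calcium-activated potassium channels, *KCNN2* stood at 4.85, 4.45, 4.55 and 5.79 CPM in IR and 5.47, 6.99, 6.33 and 5.50 CPM in sham scar zones, and at 7.10, 4.30, 8.01 and 5.49 against 3.65, 7.99, 4.95 and 5.36 CPM in the border zones. The scar zone groups overlapped by IR pig 14 alone, and the log2 fold change was -0.32 ± 0.18. *KCNN3* lay between 0.561 and 2.09 CPM with overlapping groups. The pacemaker channel gene *HCN2* stood at 4.97, 3.82, 4.07 and 3.88 CPM in IR and 5.69, 5.31, 6.04 and 3.72 CPM in sham scar zones, and at 4.78, 4.55, 4.20 and 3.10 against 6.08, 5.43, 3.30 and 4.52 CPM in the border zones. Its log2 fold changes were -0.32 ± 0.21 and -0.21 ± 0.24, with overlap in both zones.

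T-type calcium channels are prominent in the fetal ventricle and in pacemaker tissue. *CACNA1G* stood at 4.33, 9.02, 8.00 and 2.66 CPM in the IR scar zone and at 2.35, 4.01, 3.07 and 2.69 CPM in the sham scar zone. IR pigs 9 and 11 were high, whereas IR pig 14 was within the sham range. Its log2 fold change was 0.99 ± 0.37 (edgeR p = 0.0253, adjusted p = 0.438; exact permutation p = 0.143). It was 0.12 in females and 1.55 in males, and the threshold was missed without pig 4, 9, 11, 12 or 13 (0.71 without pig 9 and 0.83 without pig 11). Border zone values were 3.82, 1.54, 2.66 and 5.79 against 1.80, 3.64, 2.19 and 3.94 CPM. The 2 high samples were those with high matrix markers, whose part in the difference was not tested.

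*CACNB2*, the beta subunit that brings the L-type channel to the membrane, was lower instead. It stood at 28.8, 16.4, 12.7 and 22.3 CPM in IR and 25.8, 36.6, 30.7 and 25.3 CPM in sham scar zones, and at 21.7, 25.1, 17.1 and 25.0 against 28.4, 33.3, 24.4 and 25.0 CPM in the border zones. IR pigs 9 and 11 were lowest in the scar zone and IR pig 2 lay among sham pigs. Its log2 fold change was -0.57 ± 0.25 (edgeR p = 0.0427, adjusted p = 0.438; exact permutation p = 0.0857), and 9 of 16 alternatives kept it past the unadjusted threshold. The value was -0.50 without IR pig 9 and -0.41 without IR pig 11, both short of that threshold.

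*CACNA2D1*, the alpha-2-delta subunit, was the highest by TPM of the 5 calcium channel genes among the 30. It stood at 107, 115, 143 and 174 CPM in IR and 82.2, 104, 133 and 143 CPM in sham scar zones, and at 121, 112, 165 and 190 against 78.4, 99.7, 127 and 143 CPM in the border zones. The groups overlapped in both zones, with log2 fold changes of 0.22 ± 0.21 and 0.40 ± 0.22. *CACNA1H*, the second T-type gene, ranged from 4.91 to 24.3 CPM, with a scar zone log2 fold change of 0.15 ± 0.36 that turned to -0.27 without IR pig 9 (0.27 without pig 11). *CACNA1D*, an L-type pore of pacemaker tissue, had 30 estimated counts or fewer in every sample.

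No connexin gene passed the unadjusted threshold between IR and sham pigs in either zone. *GJA1* stood at 397, 457, 558 and 584 CPM in IR and 388, 538, 493 and 461 CPM in sham scar zones, and at 452, 606, 770 and 607 against 407, 568, 423 and 539 CPM in the border zones. Its log2 fold changes were 0.08 ± 0.16 and 0.33 ± 0.18. *GJA5*, the connexin of the conduction system and of arteries, stood between 17.6 and 43.1 CPM, with log2 fold changes of -0.27 ± 0.21 and -0.34 ± 0.25. *GJC1*, a connexin of nodal tissue, stood at 18.9 to 24.9 CPM in IR and 13.4 to 20.9 CPM in sham scar zones, with a log2 fold change of 0.35 ± 0.17 (edgeR p = 0.0616, adjusted p = 0.454; exact permutation p = 0.114). *TRPM4*, a calcium-activated cation channel, stood at 36.7, 27.6, 23.3 and 27.9 CPM in IR and 34.8, 31.8, 34.4 and 29.8 CPM in sham scar zones, and at 27.5, 30.9, 23.4 and 26.4 against 30.5, 30, 35.5 and 24.5 CPM in the border zones. Groups of these 4 genes overlapped in both zones.

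Whether the IR difference itself changed from scar to border zone was tested with an interaction term. *KCNE4* was the gene of the 30 that passed the unadjusted threshold, at 1.45 ± 0.47 on the log2 scale, beside 2.22% of 14278 genes (1.96% in its direction). It was also the one past 2-fold, beside 1.37% of all genes. Its log2 CPM in the scar minus the border zone was 1.12, 0.48, 2.09 and 0.67 in IR pigs and -0.59, 0.14, -0.11 and -0.19 in sham pigs. All 4 IR differences were above all 4 sham differences (exact permutation p = 0.0286; edgeR p = 0.00777, adjusted p = 1.000), and the interaction stayed between 0.92 and 1.63 without any 1 pig. *KCNJ3* was the other gene of the 30 whose within-pig differences were separate, at -0.48 to -0.06 in IR and -0.05 to 0.03 in sham pigs (exact permutation p = 0.0286), with an interaction of -0.27 ± 0.24 that did not pass by edgeR without the block. The share of all genes with such separate differences was not counted. With the pig as a block, since both zones came from 1 heart, 6 of 30 genes passed the unadjusted threshold beside 6.99% of all genes, and 1 was also past 2-fold beside 1.52%. These were *KCNE4* (1.33) and *GJC1* (0.30), relatively higher in the IR scar zone, and *KCNJ4* (-0.56), *KCNJ3* (-0.27), *KCNH2* (-0.57) and *KCND2* (-0.91), relatively lower. No gene passed after adjustment (smallest adjusted p among the 30 = 0.702 with the block).

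The zones of the same heart were then compared within each surgery. In IR pigs, *KCNE4* was higher on the scar side (log2 fold change 1.29), and *KCNJ5* (-1.11) and *KCNA5* (-0.75) were lower, which made 3 of 29 genes at the unadjusted threshold beside 4.35% of all genes (3.55% higher and 0.805% lower). The *KCNJ5* difference missed that threshold without pig 2 (-1.07), 11 (-1.15) or 14 (-0.91). That of *KCNE4* stayed past it without any 1 pig, from 0.77, short of 2-fold, to 1.51. *KCNE4* and *KCNJ5* were past 2-fold, beside 1.76% of all genes and 1.64% with the pig as a block. *KCNA5* was lower in the scar zone of all 4 IR pigs, by 0.17 to 0.97 on the log2 scale, and also of all 4 sham pigs, by 0.12 to 0.85. The *KCNJ5* difference between zones was -1.54 in sham pigs, without passing the threshold there. With the pig as a block there were 7 of 29, beside 11.3%, *KCNJ4* (-0.43), *KCNJ3* (-0.27), *GJA1* (-0.28) and *CACNA1H* (0.77) being added. In sham pigs 0 of 28 genes passed by edgeR at an unadjusted p of 0.05 (0.819% of all genes did, and 0.101% with 2-fold), and DESeq2 also gave 0. With the block, 6 of 28 did beside 4.77% of all genes, *NALCN* (-0.67) and *KCNA5* (-0.40) lower and *KCND2* (0.63), *KCNIP2* (0.34), *IRX3* (0.23) and *KCNH2* (0.21) higher in the scar zone. No gene passed after adjustment in either surgery.

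Of 80 further genes of cardiac excitability, 77 were found in the tables and 52 could be tested in the scar zone. At the unadjusted threshold 7 were higher and 5 lower in IR pigs, beside 6.57% and 4.64% of all genes, and none passed after adjustment (smallest adjusted p = 0.438). Over the 52 the median was 0.05, beside 0.03 for all genes. The higher genes were *SCN3B* and *SCN2B* (sodium channel beta subunits), *KCNA6* and *KCNMA1* (potassium channels), *CACNB1* (a calcium channel beta subunit), *PIEZO2* (a stretch-activated channel) and *TBX18* (a transcription factor of the sinus node and epicardium).

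*SCN3B* had the largest difference of the list. It stood at 134, 389, 202 and 18.8 CPM in IR and 7.50, 3.62, 3.98 and 56.5 CPM in sham scar zones, and at 169, 13.1, 94.1 and 9.64 against 3.55, 4.82, 68.3 and 6.60 CPM in the border zones. IR pig 14 lay below sham pig 13 in the scar zone, and sham pig 12 was high in the border zone alone. The scar zone log2 fold change was 3.37 ± 1.09 (edgeR p = 0.0119, adjusted p = 0.438; exact permutation p = 0.0571), with 2.71 without pig 9 and 3.34 without pig 11. *NPPA* and *MYL4*, which atrial and fetal myocytes express, were likewise high in the scar zones of IR pigs 2, 9 and 11 and in the border zones of IR pig 2 and sham pig 12. In the border zone of IR pig 11, where *SCN3B* stood at 94.1 CPM, *MYL4* was at 24.3 CPM, near the 24.7 CPM of its scar zone. *NPPA* was at 53.4 CPM there, level with the border zone of IR pig 9 (53.1 CPM), where *SCN3B* stood at 13.1 CPM. *NPPA* stood at 314, 313, 146 and 19.5 against 35.5, 12.6, 0.579 and 48.8 CPM in the scar zones, and in the border zones at 178, 53.1, 53.4 and 17.7 against 13.8, 33.9, 110 and 24.1 CPM. *MYL4* ranged from 2.21 to 54.3 CPM. The 3 atrial markers found in the tables, of 4 listed, summed to 21.9 to 366 CPM in IR and 2.82 to 60.5 CPM in sham scar zones, with *SLN*, the third, at or below 0.820 CPM in every sample. Their part in the *SCN3B* difference was not tested.

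*KCNA6* stood at 1.33, 15.2, 4.40 and 0.681 CPM in IR and 0.994, 0.690, 0.904 and 0.870 CPM in sham scar zones. *KCNMA1* stood at 1.04, 10.8, 5.18 and 0.953 against 0.542, 1.08, 1.27 and 0.791 CPM. *PIEZO2* stood at 1.33, 6.41, 8.15 and 2.11 against 1.31, 2.37, 1.59 and 0.830 CPM, and *TBX18* at 9.42, 37.8, 29.8 and 8.17 against 8.14, 6.26, 9.58 and 13.2 CPM. All 4 genes were high in the scar zones of IR pigs 9 and 11, those with high matrix markers, and near the sham values in IR pigs 2 and 14. Log2 fold changes were 2.66 ± 0.83, 2.30 ± 0.74, 1.57 ± 0.57 and 1.20 ± 0.48 in that order, whereas in females alone they were 0.24, 0.27, -0.13 and 0.26. Without IR pig 9 they were 1.31, 1.38, 1.34 and 0.75, and without IR pig 11 they were 2.76, 2.24, 1.13 and 1.00. *KCNMA1* missed the unadjusted threshold without pig 9, and *PIEZO2* and *TBX18* without either pig. *SCN2B* (1.24 ± 0.47) was likewise highest in these 2 pigs, at 9.70 and 6.08 CPM (0.79 without pig 9, short of the threshold, and 1.20 without pig 11), and *CACNB1* (0.66 ± 0.22) lay at 4.29 to 7.74 CPM in IR and 3.45 to 4.61 CPM in sham scar zones (0.54 without pig 9, just short of the threshold, and 0.68 without pig 11). The part of the matrix-rich samples in these differences was not tested.

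**Figure D5:**
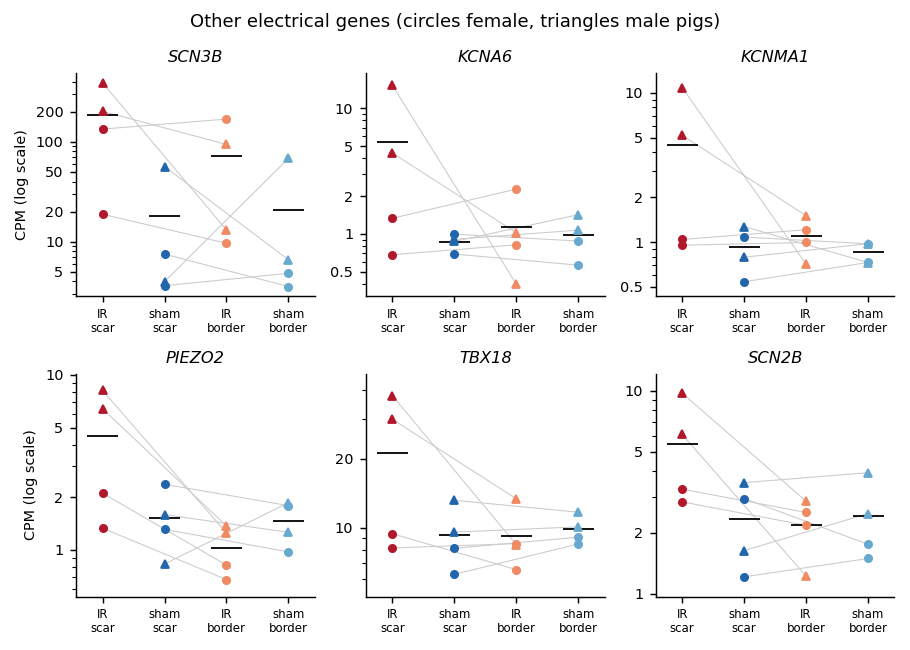
CPM (log axes) of 6 other electrical genes that were higher in the IR scar zone at the unadjusted threshold; circles are female and triangles male pigs, grey lines join the 2 zones of a pig, and bars are group means of 4. *KCNA6*, *KCNMA1*, *PIEZO2* and *TBX18* are high in the scar zones of the male IR pigs 9 and 11, and *SCN3B* varies from 3.55 to 389 CPM over the samples.

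The lower genes of the list were *ANK2*, an ankyrin that anchors channels, *NKX2-5* and *IRX4*, ventricular transcription factors, *PCP4*, a calmodulin regulator, and *RRAD*, an inhibitor of the L-type calcium channel. *RRAD* stood at 240, 219, 176 and 293 against 362, 693, 283 and 379 CPM, a log2 fold change of -0.90 ± 0.28, with IR pig 14 just above sham pig 12. The other 4 had log2 fold changes of -0.48 ± 0.19 (*ANK2*), -0.69 ± 0.27 (*NKX2-5*), -0.71 ± 0.27 (*IRX4*) and -0.38 ± 0.13 (*PCP4*), with overlapping groups. *NKX2-5* and *IRX4* missed the unadjusted threshold without IR pig 9 or 11 (-0.59 and -0.67 without pig 9, -0.51 and -0.61 without pig 11), and *ANK2* missed it without pig 11 (-0.35).

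In border zones 47 genes of the list could be tested, and 1 was higher and 3 lower at the unadjusted threshold, beside 2.09% and 1.69% of all genes, none after adjustment (smallest adjusted p = 0.988). Groups were separate for 1 higher and 3 lower genes of the list, beside 0.794% and 1.24% of all genes. *ANK3*, an ankyrin, stood at 479, 376, 629 and 466 CPM in IR and 366, 361, 353 and 347 CPM in sham pigs, all IR values above all sham values (0.45 ± 0.16). *ANO1*, a calcium-activated chloride channel, stood at 6.43, 7.77, 6.10 and 7.95 against 10.6, 12.4, 10.5 and 9.88 CPM, all IR values below all sham values (-0.62 ± 0.16). *TBX3*, a transcription factor of the conduction system, was separate too, at 6.81 to 9.82 against 10.1 to 18.2 CPM (-0.59 ± 0.22). The third separate lower gene, *TRPC6*, a cation channel singled out after its values were seen, stood at 0.818 to 1.55 against 1.60 to 2.00 CPM (-0.57 ± 0.27) and did not pass the unadjusted threshold. *TBX2*, a related factor, stood at 12.4 to 19.8 against 19.3 to 21.5 CPM (-0.37 ± 0.15).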

How the data were processed

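RNA of 16 left ventricular samples was sequenced by the authors as stranded, polyA-selected paired-end libraries. The deposited tables hold kallisto estimated counts per gene and TPM per gene. The submitters' processing notes name Trimmomatic 0.33, HISAT2 2.0.5 and kallisto 0.43.1, and the genome build is not given in the sources used here. Of the 22629 lines, 7534 carried an Ensembl ID and 915 of these were paired with a symbol, *KCNJ3* among them.

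Groups were taken from the labels. Estimated counts were rounded, filtered (edgeR filterByExpr, minimum count 10, minimum total 15), scaled by TMM and tested with edgeR 4.0.16 quasi-likelihood tests in R 4.3.3, IR against sham within each zone; p-values were adjusted by Benjamini-Hochberg over every gene of the fit. Thresholds were p of at most 0.05 and a fold of at least 2. The authors' model used factors of unwanted variation whose number and control genes were not stated, so none was used. CPM were scaled by TMM over the 16 samples. Exact permutation tests used log2 CPM (prior count 2) over all 70 divisions of 8 pigs. Zone differences of 1 heart share a pig: deviations from group means in scar and border zone correlated at 0.35 to 0.69 within each of the 8 pigs over 14278 genes, so the pig block is given where it matters. Replicates are separate pigs.

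All kept genes are named; values for every sample are given for those with an unadjusted p of at most 0.05 or separate groups between IR and sham, and for the highest by TPM in each role. Genes of the further list are named at an unadjusted p of at most 0.05; some genes first listed there are not reported here. Members, lists and tests were chosen with earlier results of these data known. Alternatives were DESeq2 1.42.0, limma 3.58.1 on log2(TPM + 1) and log2(TPM + 0.1) with at least 1 TPM in 4 samples, no count filter, 1 unwanted-variation factor, sex in the model, 1 fit of all samples, the pig block and leaving out each pig; fits within each sex were added after the data were seen. Counting limits are of 3 counts and cover counting error only. The procedure was tested on simulated counts of the scar zone comparison, with changes larger than most given here and no pairing of zones. That test therefore does not bear on differences of the size given here.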

Additional observations from a re-analysis of the deposited data

Results flagged for a closer look

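Among 184 groups of 4 samples of the 46 genes named (the 30 channel and conduction genes and 16 others), 6 held a sample whose gap to the nearest other exceeded Dixon's critical share of the group's range, a level that chance passes in about 5% of groups. *KCNJ5* was 14.6 CPM in the border zone of sham pig 12 against 182 to 297 CPM in the other 3. *KCNH2* was 81.0 CPM in the border zone of IR pig 9 against 54.5 to 56.4 CPM. *KCNE4* was 8.89 CPM in the scar zone of IR pig 11 against 2.84 to 3.35 CPM. *CACNA1D* was 0.117 CPM in the border zone of IR pig 14 against 0.231 to 0.256 CPM, at 10 counts or fewer. *IRX3* was 27.7 CPM in the border zone of sham pig 13 against 45.8 to 48.5 CPM. *TBX3* was 18.2 CPM in the border zone of sham pig 12 against 10.1 to 10.9 CPM.

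In 4 of 92 comparisons both female IR pigs lay on one side of both female sham pigs and both male IR pigs on the other side of the male sham pigs, with 2 pigs of each sex and surgery. The difference of mean log2 CPM, IR minus sham, was 0.23 in females and -0.46 in males for *SCN7A* in the scar zone (males minus females -0.69), and 0.10 and -0.91 for *KCNJ4* there (-1.02). In the border zone it was 0.67 and -1.60 for *KCNN3* (-2.26), and -0.76 and 0.68 for *IRX4* (1.45). The share of all genes with this pattern was not counted, and with 2 pigs a side it can arise by chance. These differences between the sexes were not tested.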

How the results depend on the processing

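With 4 pigs a group and no adjusted call by edgeR, all single differences by that test rest on unadjusted p-values, and low genes such as *CNTN2*, *NALCN*, *SCN4B* and *CACNA1D* rest on few counts. Each of the 11 differences between IR and sham pigs at the unadjusted threshold kept its direction under every alternative that tested it. *CNTN2* in both zones, *KCNA5* in the scar zone and *NALCN* and *KCNIP2* in the border zone also kept their side of that threshold throughout, fits within 1 sex aside. The alternatives refit the same samples in which the 11 differences were picked, so they bring no support from new data.

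Genes called at an adjusted p of at most 0.05 and 2-fold, 0 by edgeR in every comparison and without any 1 pig, numbered 52 in the scar zone with DESeq2, 148 with 1 factor of unwanted variation by likelihood ratio, 3 with limma on log2(TPM + 1), 1 with limma on log2(TPM + 0.1), 1 in females alone and 623 in males alone, whose IR pigs 9 and 11 had the high matrix markers; the difference between the sexes was not tested. In the border zone they numbered 2 with DESeq2, 5 with the factor by likelihood ratio and 2 in females alone; between zones in IR pigs 4 with DESeq2 and 2 with limma at either pseudocount; and between zones in sham pigs 1 with DESeq2 and 1 with limma on log2(TPM + 1). Among the 30 genes these calls were *NALCN* in the border zone with DESeq2 and with the factor, *CNTN2* in the scar zone with DESeq2, with the factor and in males, and *CACNA1G* and *IRX3* in the scar zone in males. Whatever their fold, 5 of the 30 scar zone differences passed after adjustment with the factor by likelihood ratio, beside 2.68% of all genes (*CNTN2*, *IRX3*, *KCNQ1*, *KCNA5* and *CACNB2*), and 6 in males alone, beside 6.92% (*CNTN2*, *IRX3*, *KCNQ1*, *CACNB2*, *KCNJ4* and *CACNA1G*).

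The number of the 30 genes past the unadjusted p and 2-fold was 4 in the scar zone (3.35% of all genes), 0 with limma at either pseudocount (1.22% and 1.96%), 2 with 1 factor of unwanted variation by quasi-likelihood (2.52%), 1 in females alone (2.82%) and 2 to 5 without 1 pig (2.06% to 5.80%; 2 genes without pig 4, 11 or 12). In the border zone it was 2 (0.794%), and 0 with limma at either pseudocount (0.266% and 0.450%). For the interaction it was 1 (1.37%), with 0 by limma at either pseudocount (0.285% and 0.404%) and 0 to 3 without 1 pig (0.615% to 2.53%; 0 genes without pig 11, 2 without pig 2 or 4 and 3 without pig 14). Between zones it was 2 in IR pigs (1.76%), with 1 by limma at either pseudocount (0.468% and 0.649%) and 0 to 2 without 1 pig (0.532% to 2.74%; 0 genes without pig 11), and 0 in sham pigs (0.101%), with 0 to 1 without 1 pig (0.109% to 0.268%; 1 gene without pig 12). The limma filter of 1 TPM left *NALCN*, *CNTN2*, *KCNE4* and *CACNA1G* untested.

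The median log2 fold change of the 30 genes was -0.20 in the scar zone. With limma it was -0.06 and -0.05 (pseudocounts 1 and 0.1) over the 22 genes that passed its filter, whose edgeR median was -0.29. It was -0.37 in males alone and -0.28 to -0.17 without 1 pig (-0.28 without pig 9). Between zones in IR pigs it was -0.14, with -0.03 by limma at either pseudocount over 21 genes (edgeR median -0.16) and -0.15 to -0.05 without 1 pig (-0.05 without pig 9). The median of all genes in the scar zone was 0.03 by edgeR and 0.15 and 0.17 by limma, which differed in scale, filter and model at once.

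Under the replicate block, which gives each pig its own level, the genes past the unadjusted p went from 1 to 6 of 30 for the interaction (2.22% to 6.99% of all genes), from 3 to 7 of 29 between zones in IR pigs (4.35% to 11.3%) and from 0 to 6 of 28 in sham pigs (0.819% to 4.77%). The counts past p and 2-fold with the block were 1, 2 and 0 (1.52%, 1.64% and 0.203% of all genes), as without it, and the medians were -0.14, -0.14 and 0.06.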
